A study of Mus musculus with 15 samples.

Results

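The response of brown preadipocytes to FGF1, fibroblast growth factor 1, was measured by RNA sequencing against untreated cells of the same line and is described here across genes. The comparison used 6 of the 15 libraries of the study, 3 from cells given FGF1 and 3 from control cells to which the labels assign no agent. Its features were the rows of the deposited table that carry a gene symbol, 1 row per symbol, namely the transcript whose mean across the 15 libraries was highest. That gave 29072 genes, of which 13869 reached 0.5 RPKM (reads per kilobase of transcript and per M reads of the library) in at least 3 libraries and were tested.

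All groups were of the same cells, preadipocytes of 129SvEv mice taken from the stromal-vascular cells of interscapular brown fat and immortalised with the SV40 large T antigen, a viral protein that disables p53 and the retinoblastoma protein. The FGF1 group received 5.56 nM FGF1 for 48 h, with heparin at 1 µg/ml according to the series text, although the labels name heparin for FGF9 only. The groups with FGF8b and FGF9, of 3 libraries each and treated at the same dose and time, serve below as a reference for what other paracrine FGFs did in these cells. A further group received FGF8b with BAY-876. It enters the choice of transcripts and of tested genes and the estimate of the spread, but none of the comparisons. Whether heparin was added to the control cells, or whether they were kept for the same time, is not stated, and no group had heparin alone, so FGF1 and heparin cannot be told apart. Nothing in the labels ties the 3 libraries of a group to separate cultures. The p-values then measure only the spread between these samples, which may be technical.

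FGF1 is a secreted growth factor without a signal peptide that binds every FGF receptor, with heparan sulfate chains as the coreceptor that steadies the complex. An active FGF receptor docks the adaptor FRS2, which feeds the RAS-ERK and PI3K-AKT pathways. ERK raises transcription of ETS factors and of its own brakes, the Sprouty proteins and the phosphatase DUSP6, so these genes are commonly read as a gauge of FGF signalling. Brown preadipocytes are the fibroblast-like precursors that later build the mitochondria-rich, heat-producing adipocyte, and they also lay down extracellular matrix.

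Pdgfra, the receptor that marks adipocyte precursors, was at 279, 274 and 276 RPKM in control and 299.8, 297 and 298 RPKM with FGF1. Each FGF1 library lay slightly above each control library, and the difference did not pass (0.11, adjusted p = 0.278). Of 10 markers of the mature adipocyte, Plin1, Cidec, Lep and Cfd were listed at 0 in all 6 libraries, while the fatty acid binder Fabp4 was at 4.99, 6.66 and 5.94 RPKM in control and 7.5, 7.38 and 9.27 RPKM with FGF1 and the lipase Lipe averaged 1.89 and 1.45 RPKM and did not pass, but was lower without control replicate 3 (-0.40, adjusted p = 0.0415). Fabp4 passed (0.43, adjusted p = 0.0117), and the call was lost without control replicate 1 (0.33, adjusted p = 0.0632) or FGF1 replicate 3 (0.33, adjusted p = 0.0686). Also listed at 0 were Cidea and Cox8b of mature brown fat and the muscle regulators Myod1, Myf5 and Myog. Depth, read from the steps of the RPKM values, was 31.60 to 37.54 M reads in control and 27.01 to 32.05 M reads with FGF1. Across the tested genes the log2 levels of libraries correlated at 0.9933 to 0.9967 within the 2 groups and at 0.9751 to 0.9798 between them. In 6058 genes with at least 10 RPKM in both groups the median coefficient of variation was 6.33% in control and 3.55% with FGF1. The fit used 1 spread per gene for all 5 groups, so the p-values do not reflect the wider spread of the control libraries. In bulk RNA, fewer cells of a type and less RNA per cell cannot be told apart.

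FGF1 changed many genes by small amounts and a few by a lot. Of the 13869 tested genes, 4772 passed an adjusted p of 0.05 (34.4%), 2677 higher (19.3%) and 2095 lower (15.1%). Of those that passed, 63.1% had moved by less than 0.5 on the log2 scale. A change of at least 2-fold was found for 172 genes upward (1.24%) and 360 downward (2.6%), and one of at least 4-fold for 20 upward and 45 downward. Log2 changes are FGF1 minus control on log2(RPKM + 0.5), which understates the change of genes with low levels. The median over all tested genes was 0.02. Levels that do not overlap between the 3 control and the 3 FGF1 libraries were found for 6537 genes (47.1%). The shares given here are the background against which the gene groups below can be read. Genes named below for the size of their change were drawn only from genes without overlap. For them the separation of the groups is therefore not a further result.

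The 12 largest rises on the log2 scale were in genes of several kinds. Cilp, which encodes the cartilage intermediate layer protein, was at 2.79, 2.97 and 2.82 RPKM in control and 56.2, 53.4 and 51.7 RPKM with FGF1, a log2 change of 4.01 ± 0.12 (SE, adjusted p = 5.01e-12). Thbs4, the matricellular thrombospondin-4, was at 5.73, 5.13 and 5.2 RPKM in control and 55.6, 55.5 and 57.1 RPKM with FGF1 (3.27 ± 0.10, adjusted p = 5.01e-12). In both genes the lowest FGF1 library lay far above the highest control library. Has2, which makes hyaluronan, was at 5.38, 5.77 and 5.71 RPKM in control and 27.5, 30.04 and 28.3 RPKM with FGF1, and Rspo3, a secreted amplifier of WNT signals, at 2.81, 2.68 and 3.28 RPKM in control and 16.2, 14.9 and 15.8 RPKM with FGF1. Runx1, a transcription factor of blood and mesenchymal cells, was at 1.29, 1 and 1.4 RPKM in control and 9.13, 8.93 and 9.64 RPKM with FGF1. All 3 of these genes had tight libraries within each group and no overlap between groups.

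Some of the 12 largest rises started from very few reads. S100g, a vitamin D-dependent calcium-binding protein, had 2 reads over the 3 control libraries and 158 with FGF1, a ratio of levels of 84.9 (95% exact counting interval 23.1 to 707). Car9, a cell-surface carbonic anhydrase, had 5 and 249 reads, a ratio of 61.3 (25.9 to 190). Plxna4, a semaphorin receptor, had 56 and 821 reads and a ratio of 17.5 (13.3 to 23.3). Reads of a gene, here and below, were inferred from the steps of its RPKM values, since the deposited values are not counts. These intervals cover counting error and not the spread between libraries or errors of that inference.

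Among the 12 largest falls, Clec3b, which encodes the plasminogen-binding protein tetranectin, was at 42.3, 32.7 and 35.1 RPKM in control and 1.42, 1.04 and 1.78 RPKM with FGF1 (-4.29 ± 0.13, adjusted p = 5.01e-12). Igfbp3, a carrier that binds insulin-like growth factors, was at 268, 247 and 285 RPKM in control and 42.7, 40.5 and 40.3 RPKM with FGF1. Gas6, the ligand of the AXL and MERTK receptors, was at 76.3, 62.3 and 68.1 RPKM in control and 11.4, 9.87 and 11 RPKM with FGF1. In all 3 genes the highest FGF1 library lay well below the lowest control library. Itih5, which stabilises hyaluronan, was at 5.88, 6.1 and 8.13 RPKM in control and 0.393, 0.38 and 0.396 RPKM with FGF1, and Itga8, an integrin subunit, at 7.07, 7.26 and 7.76 RPKM in control and 0.758, 0.778 and 0.745 RPKM with FGF1.

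**Figure D1:**
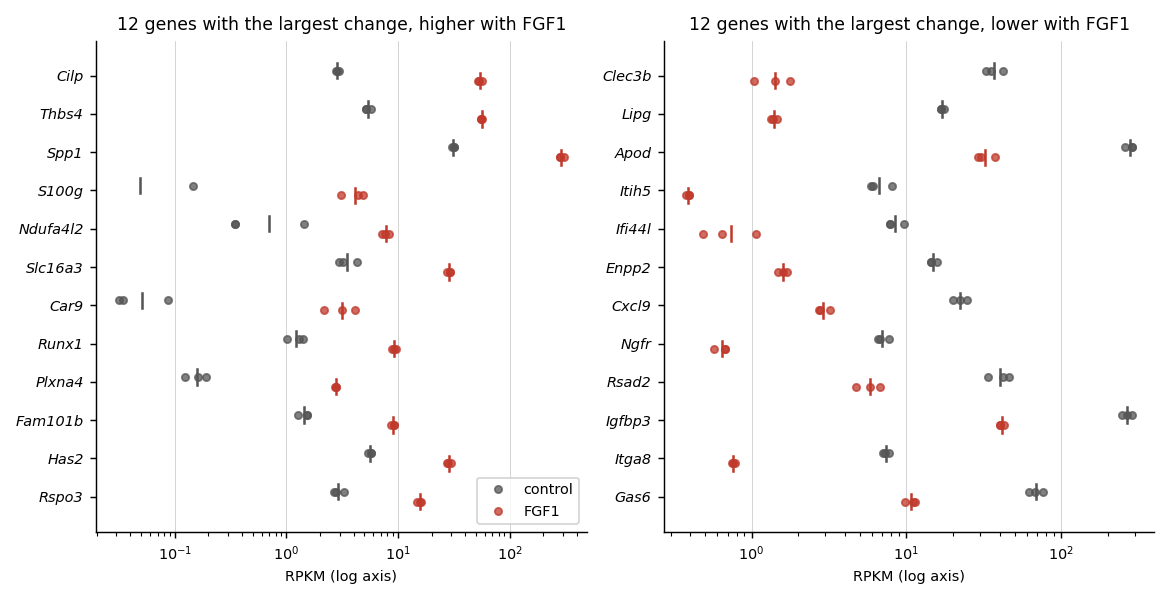
RPKM on a log axis of the 12 genes with the largest log2 change in each direction, with 1 point per library (control grey, FGF1 red) and a bar at each group's mean. In every gene the libraries of the groups are apart, which the choice of genes required. The 2 control libraries of S100g at 0 cannot be drawn on this axis.

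Measured in RPKM rather than in fold, the 8 largest gains named were in Col3a1, Bgn, Hsp90b1, Ctsl, Pgk1, Tgfbi, Cxcl12 and Crabp1. Col3a1, the chain of type III collagen, was at 1167, 1066 and 1342 RPKM in control and 1877, 1800 and 1871 RPKM with FGF1, and Bgn, the proteoglycan biglycan, at 882, 779.8 and 816 RPKM in control and 1219, 1260 and 1239 RPKM with FGF1. Hsp90b1, a chaperone of the endoplasmic reticulum, was at 501, 513 and 559.8 RPKM in control and 911, 937 and 894 RPKM with FGF1. The 8 largest losses named were in B2m, Bst2, Ly6a, Ifit3, Ifitm3, Ifi27l2a, Postn and S100a6. B2m, the light chain of MHC class I, was at 2294, 2201 and 2027 RPKM in control and 1084, 1004 and 1025 RPKM with FGF1, and Ly6a, the surface antigen Sca-1, at 1047, 932 and 1067 RPKM in control and 261, 235 and 239.6 RPKM with FGF1. Of these S100a6 passed narrowly (-0.23, adjusted p = 0.0469) and lost its call without any 1 library of the 6 except control replicate 3, with adjusted p between 0.0572 and 0.164. It also lost its call under median centring (adjusted p = 0.059) and with no filter (adjusted p = 0.145).

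**Figure D2:**
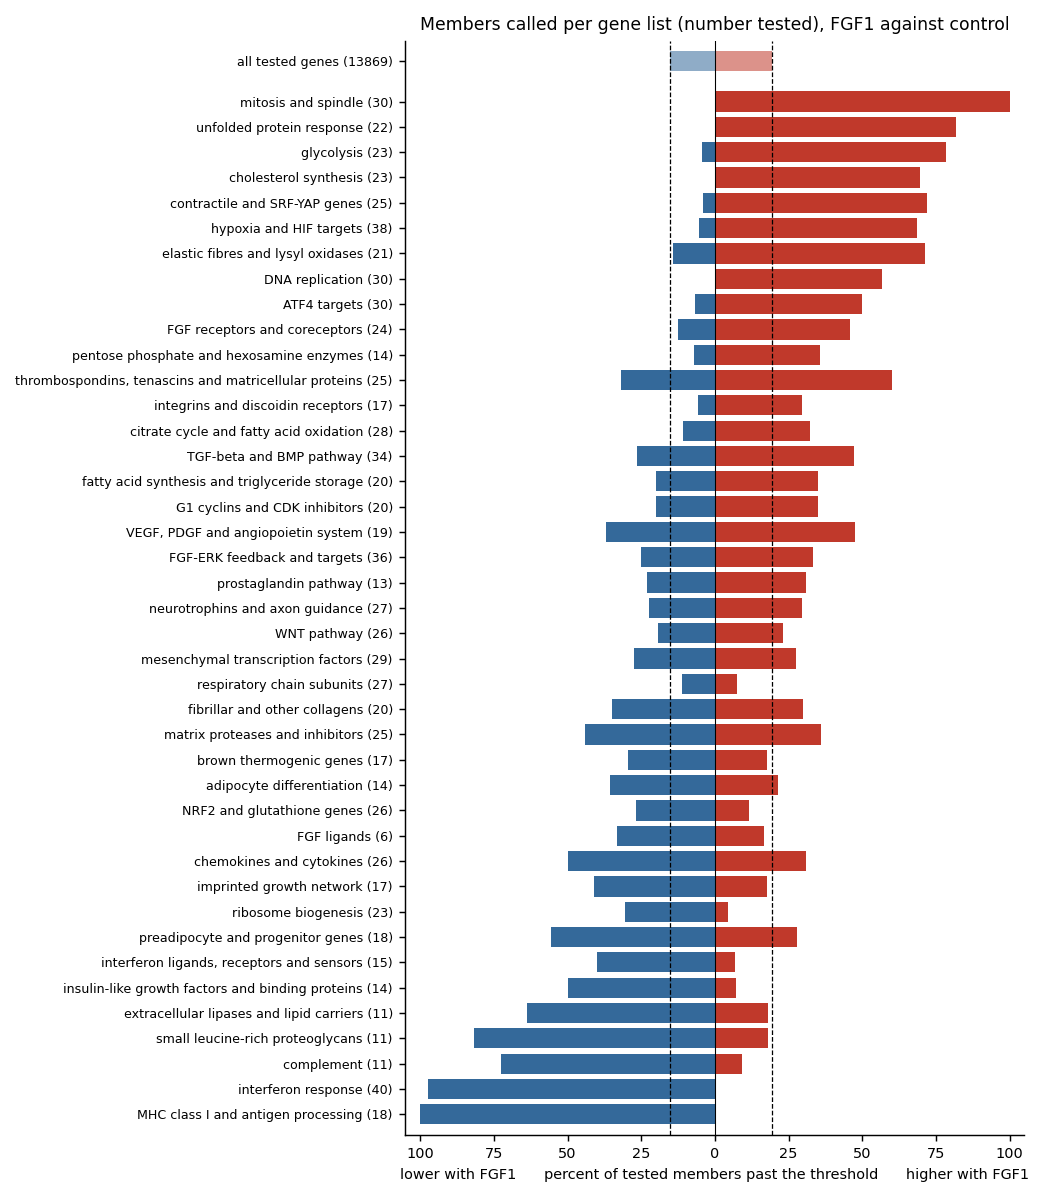
Percent of tested members that passed the threshold, higher to the right and lower to the left, for 41 gene lists with the number of members tested in brackets. The top bar and the dashed lines give all 13869 tested genes (19.3% higher, 15.1% lower), and the lists of mitosis genes and of MHC class I genes reach 100% in opposite directions.

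The main receptor gene did not pass, while a ligand gene, Fgf10, fell steeply. Fgfr1, the most abundant receptor gene of the family here, was at 79, 64.8 and 69 RPKM in control and 68.1, 68.4 and 65.9 RPKM with FGF1, and the groups overlapped (-0.07 ± 0.07, adjusted p = 0.522). Fgfr2 averaged 3.23 RPKM in control and 2.58 RPKM with FGF1 and did not pass (adjusted p = 0.323), but summed over its transcripts it was lower (-0.48, adjusted p = 0.00147). Fgfr3 stood at 0.437 and 0.483 RPKM (adjusted p = 0.673). Fgfrl1, a receptor without a kinase domain, was at 5.78, 5.34 and 4.71 RPKM in control and 8.97, 9.07 and 8.68 RPKM with FGF1 (0.71, adjusted p = 3.25e-05), so each FGF1 library lay above each control library. Of 24 tested receptors, adaptors and heparan sulfate genes, 11 rose, 3 fell and 10 did not pass, with a median of 0.11 against 0.02 over all genes. The 3 falls became 5 when transcripts were summed.

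Among those that rose were genes that carry or sulfate the heparan chains. Gpc1, the anchored proteoglycan glypican-1, went from 5.6 to 9.83 RPKM (0.76), the syndecans Sdc2 and Sdc4 from 56 to 75 and from 31.4 to 42.1 RPKM, and the sulfotransferase Hs6st1 from 5.29 to 8.7 RPKM. Gpc6 fell from 20.4 to 15.3 RPKM. Among 6 tested FGF ligands, Fgf10, which signals through the b form of FGFR2 and supports preadipocytes, was at 8.82, 9.26 and 9.56 RPKM in control and 1.79, 1.67 and 1.53 RPKM with FGF1 (-2.17 ± 0.10, adjusted p = 2.74e-10). Fgf7, its close relative, fell from 76.2 to 51.9 RPKM, and Fgf18 rose from 1.62 to 2.72 RPKM. The other 3, Fgf1, Fgf2 and Fgf21, did not pass, and each stayed under 1 RPKM on average in both groups. The cells' own Fgf1 transcript averaged 0.159 and 0.0724 RPKM and was lower at a pseudocount of 0.1 (-0.62, adjusted p = 0.0351), when transcripts were summed (-0.78, adjusted p = 0.00584) and with voom on recovered reads (-1.38, adjusted p = 0.0172).

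At 48 h the Sprouty genes, Dusp6 and the FGF-induced ETS factors Etv4 and Etv5 were not higher with FGF1 than in control. Of 36 genes of FGF-ERK feedback and its targets, 12 rose, 9 fell and 15 did not pass, with a median of 0.06. Dusp6, the ERK phosphatase, was at 1.45, 1.24 and 1.35 RPKM in control and 0.758, 0.968 and 1.1 RPKM with FGF1 (-0.36 ± 0.09, adjusted p = 0.00412), while it averaged 18.6 ± 0.593 RPKM (SD, n = 3) with FGF8b and 26.8 ± 1.45 with FGF9. Spry1, a Sprouty brake, was at 5.01, 5.25 and 5.18 RPKM in control and 2.7, 3.34 and 3.31 RPKM with FGF1 (-0.65, adjusted p = 5.64e-05). Etv4, an ETS factor induced by FGFs, was at 1.7, 0.962 and 1.01 RPKM in control and 0.52, 0.472 and 0.616 RPKM with FGF1, against 23.5 ± 1.33 RPKM with FGF8b and 27.5 ± 2.23 with FGF9. Il17rd, the membrane inhibitor Sef, was at 1.86, 1.66 and 1.93 RPKM in control and 0.687, 0.613 and 0.607 RPKM with FGF1. The FGF1 libraries of Dusp6, Spry1, Etv4 and Il17rd all lay below the control libraries.

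Spry4 averaged 0.349 RPKM in control and 0.248 with FGF1 and did not pass (adjusted p = 0.0782). It was lower at a pseudocount of 0.1 (adjusted p = 0.0121) and when transcripts were summed (adjusted p = 0.0185). Etv5 averaged 3.22 and 2.14 RPKM (-0.54, adjusted p = 0.0245), and the call was lost without control replicate 1 (-0.42, adjusted p = 0.105), control replicate 3 (-0.54, adjusted p = 0.055), FGF1 replicate 1 (-0.29, adjusted p = 0.127) or FGF1 replicate 3 (-0.54, adjusted p = 0.058), with fewer groups in the fit (adjusted p = 0.0972) and with no filter (adjusted p = 0.0568). Myc averaged 10.2 and 8.11 RPKM (-0.32, adjusted p = 0.0316), and its call was lost without control replicate 1 (adjusted p = 0.115), control replicate 3 (0.0879), FGF1 replicate 1 (0.132) or FGF1 replicate 2 (0.0875) and with no filter (0.0607). For Spry4, Etv5 and Myc the levels with FGF8b and FGF9 were higher than with FGF1 in every library, with means of 6.13 and 10.8 RPKM for Spry4, 31.5 and 35.3 for Etv5, and 20.2 and 22.6 for Myc.

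Other members of the same list rose. Ets1, an ETS transcription factor activated by ERK, was at 8.12, 7.68 and 7.51 RPKM in control and 29.2, 29.3 and 29.1 RPKM with FGF1 (1.84 ± 0.06, adjusted p = 1.68e-11), and it averaged 6.75 RPKM with FGF8b and 7.34 with FGF9. Junb, a subunit of the AP-1 factor, was at 4.53, 2.79 and 2.48 RPKM in control and 5.8, 6.93 and 8.52 RPKM with FGF1, and Hbegf, a ligand of the EGF receptor, at 2.06, 1.6 and 1.69 RPKM in control and 3.54, 3.94 and 3.77 RPKM with FGF1. The FGF1 libraries lay above the control libraries in all 3. Jun rose from 5.34 to 9.11 RPKM and Ets2 from 9.24 to 16 RPKM.

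**Figure D3:**
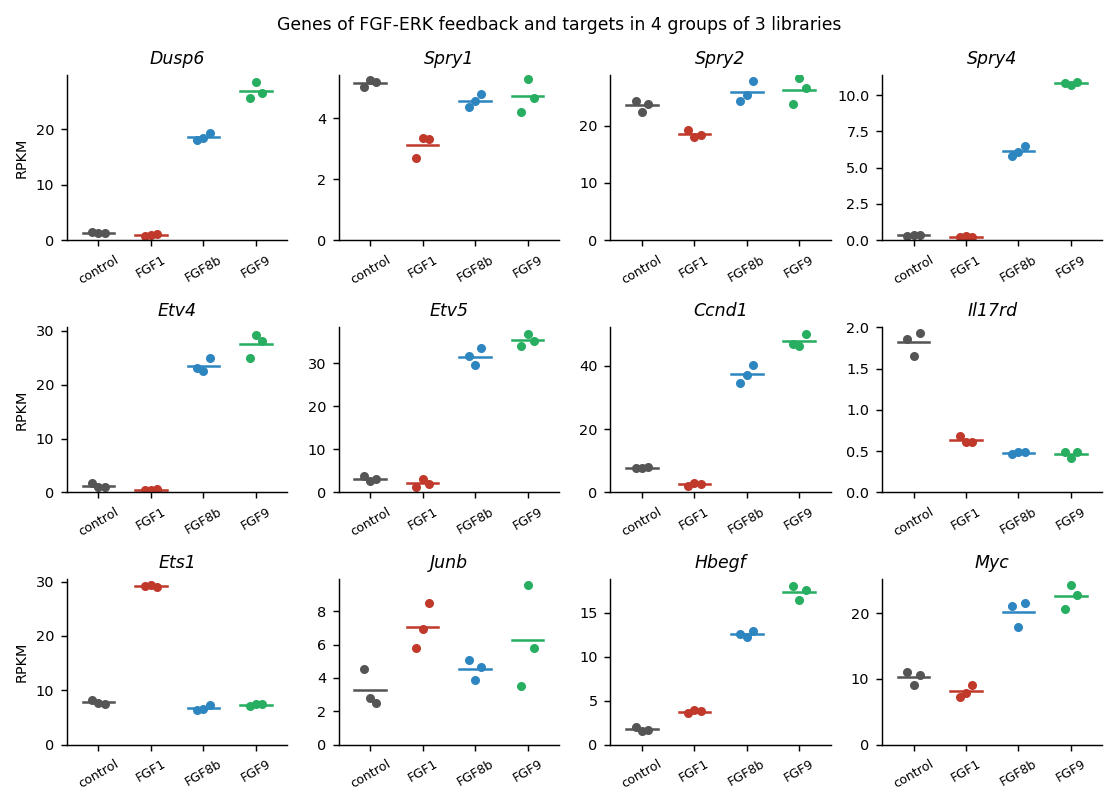
RPKM of 12 genes of FGF-ERK feedback and its targets in the 3 libraries of each of 4 groups, with a bar at the mean and every axis starting at 0. Dusp6, Etv4, Spry4 and Ccnd1 are near the bottom of the axis in control and FGF1 and high with FGF8b and FGF9, while Ets1 is high with FGF1.

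Ccnd1, which encodes cyclin D1 and is a classical growth factor target, was at 7.7, 7.56 and 7.97 RPKM in control and 2.16, 2.93 and 2.65 RPKM with FGF1 (-1.43 ± 0.08, adjusted p = 2.88e-09), against 37.3 ± 2.88 RPKM with FGF8b and 47.6 ± 1.98 with FGF9. Ccnd2 fell as well, from 17.3 to 8.25 RPKM, as did Cdkn1a, the inhibitor p21, from 16.4 to 8.12 RPKM. Genes of the dividing cell rose together. All 30 tested genes of mitosis and the spindle were higher, with log2 changes between 0.31 and 0.71 and a median of 0.54. Top2a, the topoisomerase of chromosome condensation, was at 95.7, 106 and 104 RPKM in control and 165, 168 and 162 RPKM with FGF1, Mki67, the proliferation antigen Ki-67, at 47.1, 47.6 and 51 RPKM in control and 72.8, 75.4 and 71.4 RPKM with FGF1, and Aurkb, a kinase of chromosome segregation, at 19, 21.1 and 16.9 RPKM in control and 29.7, 31.5 and 32.5 RPKM with FGF1. No FGF1 library of these 3 genes reached down to a control library.

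Genes of DNA replication had a lower median. Of 30 tested, 17 rose, none fell and 13 did not pass in limma, with a median of 0.19, and 0 were lower at an unadjusted p of 0.05 or by voom on recovered reads. Rrm2, a subunit of ribonucleotide reductase, went from 22.6 to 33.2 RPKM and Cdc6, which loads the replicative helicase, from 9.36 to 14.7 RPKM. The helicase subunits Mcm4 and Mcm6 did not pass, at 0.07 (adjusted p = 0.391) and 0.07 (adjusted p = 0.361). Of 20 cyclins, kinases and inhibitors of G1, 7 rose, 4 fell and 9 did not pass, and Ccne2, cyclin E2, rose from 15.4 to 23.8 RPKM. Of 23 tested genes of ribosome biogenesis, 1 rose, 7 fell and 15 did not pass (median -0.15). The share called, 34.8%, is near the 34.4% of all tested genes. The 7 became 3 without FGF1 replicate 1, and the 1, Bop1, was not called without control replicate 3 (0.27, adjusted p = 0.113) or FGF1 replicate 2 (0.36, adjusted p = 0.0815), when transcripts were summed (0.26, adjusted p = 0.0909) or with voom (0.43, adjusted p = 0.0671).

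Glycolysis was among the groups that rose most. Of 23 tested genes, 18 rose, 1 fell and 4 did not pass, and the median was 0.87 against 0.02 over all genes. Slc16a3, the lactate exporter MCT4, was at 4.29, 3.22 and 2.99 RPKM in control and 27.4, 29.1 and 29.2 RPKM with FGF1 (2.87 ± 0.18, adjusted p = 9.42e-09). Ldha, which makes lactate from pyruvate, was at 168, 165 and 151 RPKM in control and 397, 429.5 and 398 RPKM with FGF1, and Pgk1, phosphoglycerate kinase, at 185, 184 and 175 RPKM in control and 557, 586 and 556 RPKM with FGF1. Pdk1, the kinase that shuts pyruvate dehydrogenase, was at 12.7, 13.1 and 11.5 RPKM in control and 31.7, 36.8 and 35.8 RPKM with FGF1. In these 4 genes the groups did not overlap. Slc2a1, the glucose transporter GLUT1, rose from 14.6 to 25.8 RPKM (0.80, adjusted p = 9.96e-06).

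Isoforms of an enzyme were called differently. The hexokinase Hk2 rose from 1.32 to 3.32 RPKM while Hk1, the more abundant of the pair, did not pass at 23.8 and 26.8 RPKM (adjusted p = 0.126). The liver-type phosphofructokinase Pfkl rose from 20.4 to 60.5 RPKM, and the muscle type Pfkm did not pass at 23 and 21.5 RPKM (adjusted p = 0.498). Eno1 rose from 138 to 395 RPKM and the neuronal enolase Eno2 fell from 11.5 to 7.84 RPKM (-0.53, adjusted p = 0.00729). Slc16a1, a transporter that carries lactate both ways, did not pass (adjusted p = 0.0929), but was lower without control replicate 3 (-0.24, adjusted p = 0.025).

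Genes of the hypoxia response, which the HIF factors induce when oxygen falls, rose with them. Of 38 tested, 4 of which are also on the glycolysis list, 26 rose, 2 fell and 10 did not pass, with a median of 0.50. Bnip3, a mitophagy receptor, was at 26.3, 27.6 and 29.6 RPKM in control and 104, 103 and 103 RPKM with FGF1 (1.87 ± 0.13, adjusted p = 1.97e-08). Egln3, an oxygen-sensing prolyl hydroxylase, was at 0.536, 0.785 and 0.553 RPKM in control and 2.89, 3.79 and 3.6 RPKM with FGF1, and Vegfa, the angiogenic growth factor, at 10.6, 10.3 and 12.6 RPKM in control and 22, 26.2 and 27.6 RPKM with FGF1. Ndufa4l2, which lowers complex I activity in hypoxia, was at 1.43, 0.343 and 0.346 RPKM in control and 8.38, 7.7 and 7.2 RPKM with FGF1, with control replicate 1 above the other control libraries and all FGF1 libraries higher still. Hif1a itself, the oxygen-regulated subunit, was at 62.1, 65.7 and 68.8 RPKM in control and 140.4, 135 and 138 RPKM with FGF1 (1.07, adjusted p = 3.84e-09). Adm, the vasodilator peptide adrenomedullin and a common hypoxia marker, went the other way and was at 44.9, 37.7 and 41.7 RPKM in control and 17.1, 14.6 and 16.2 RPKM with FGF1 (-1.35, adjusted p = 5.22e-08). Car12, the other that fell, stood at 0.931 and 0.355 RPKM. The oxygen pressure of the cultures is not given in the sources used here.

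Promoters were searched for ACGTG, the core of the hypoxia response element, on both strands of the 250 bases before each RefSeq start of transcription. A gene counted as holding the core if it lay before any of its starts. RefSeq (GRCm38.p6) promoters matched 10381 of the 13869 tested genes. The core lay in 24.8% of these, in 18 of 29 hypoxia genes with a promoter (62.1%), in 11 of 22 glycolysis genes (50%) and in 28.5% of genes at least 2-fold higher. It lay in 26.8% of all genes called higher, 22.1% of those called lower and 15.7% of genes at least 2-fold lower. The hypoxia list was chosen to hold HIF targets, so a high share there is a property of the list. The part of the element in the changes was not tested. The core is short and also sits in the E-box CACGTG, where it reads on both strands. The 5 stretches below are from the list members that rose most among those that hold it, written 5′ to 3′ on the gene's strand, with each complete ACGTG or its complement CACGT in capitals.
Slc16a3 (chr11:120949023-120949066, GRCm38.p6, plus strand): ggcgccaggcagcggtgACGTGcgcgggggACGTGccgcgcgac
Car9 (chr4:43506978-43507025, GRCm38.p6, plus strand): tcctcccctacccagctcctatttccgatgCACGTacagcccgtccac
Bnip3 (chr7:138909579-138909643, GRCm38.p6, minus strand): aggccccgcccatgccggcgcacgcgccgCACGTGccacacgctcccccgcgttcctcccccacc
Egln3 (chr12:54204069-54204124, GRCm38.p6, minus strand): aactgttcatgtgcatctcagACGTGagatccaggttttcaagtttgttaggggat
Ankrd37 (chr8:45999851-45999886, GRCm38.p6, minus strand): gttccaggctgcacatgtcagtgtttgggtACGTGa
The match nearest the start begins at -14 in Slc16a3, -18 in Car9, -6 in Ankrd37, -107 in Bnip3 and -229 in Egln3, counted in bases from the start of transcription. Ankrd37, an ankyrin-repeat protein and a regular hypoxia target, was at 2.44, 1.45 and 1.71 RPKM in control and 7.49, 7.53 and 7.21 RPKM with FGF1.

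Few genes of the respiratory chain changed. Of 27 tested subunits of the respiratory chain, 2 rose, 3 fell and 22 did not pass, and all log2 changes lay between -0.25 and 0.21. The count of 2 became 1 without control replicate 1, control replicate 3 or FGF1 replicate 1, and 0 without FGF1 replicate 2. Ndufa4, a subunit of cytochrome c oxidase, was at 292, 295 and 283 RPKM in control and 254, 243 and 236 RPKM with FGF1 (-0.25, adjusted p = 0.00503). Of 28 genes of the citrate cycle and fatty acid oxidation, 9 rose, 3 fell and 16 did not pass (median 0.02). The 9 became 5 without control replicate 2, 4 without FGF1 replicate 1 and 5 under trimmed-mean scaling, under which the median turned to -0.0031. Cpt1a, the gate for fatty acids into mitochondria, was at 20.1, 18 and 19.4 RPKM in control and 29.96, 30.9 and 29.3 RPKM with FGF1 (0.64, adjusted p = 1.07e-05), and Suclg2, a subunit of succinyl-CoA ligase, fell from 27.8 to 20.1 RPKM.

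On the list of pentose phosphate and hexosamine enzymes, 5 of 14 rose, 1 fell and 8 did not pass. All 5 that rose belong to the hexosamine pathway, which supplies the sugar for glycosylation and hyaluronan. Gfpt2, an isoform of its first enzyme, was at 8.14, 7.37 and 8.57 RPKM in control and 19.3, 19.3 and 20.2 RPKM with FGF1, and Gfpt1, Gnpnat1, Pgm3 and Uap1 rose by 0.45, 0.38, 0.56 and 0.34. G6pdx, the entry enzyme of the pentose phosphate pathway, fell from 54.9 to 45.9 RPKM.

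Genes of the protein-folding machinery of the endoplasmic reticulum rose by modest amounts. Of 22 tested genes of the unfolded protein response, 18 rose, none fell and 4 did not pass in limma (median 0.52), and 0 were lower at an unadjusted p of 0.05 or by voom on recovered reads. Pdia6, a disulfide isomerase, was at 192, 177 and 175 RPKM in control and 320.2, 329 and 319.6 RPKM with FGF1, and Hspa5, the chaperone BiP, at 279, 278 and 306 RPKM in control and 436, 442 and 416 RPKM with FGF1. Xbp1, the factor that drives much of this programme, rose from 31.2 to 54.4 RPKM (0.79). Ddit3, the stress factor CHOP, fell from 42.5 to 26.7 RPKM (-0.66, adjusted p = 6.95e-06). Of 30 tested ATF4 targets, Ddit3 among them, 15 rose, 2 fell and 13 did not pass (median 0.30). Ddit4, an inhibitor of mTORC1 that hypoxia also induces, went from 8.66 to 24.8 RPKM, the proline enzyme Pycr1 from 8.38 to 15.2, and Atf4 itself from 79.7 to 113 RPKM. The other of the 2 that fell, Sesn2, lost its call without control replicate 1 (-0.23, adjusted p = 0.0864) or FGF1 replicate 1 (-0.33, adjusted p = 0.0559). Under trimmed-mean scaling, and when transcripts were summed, 4 ATF4 targets were lower.

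Cholesterol synthesis rose as well. Of 23 tested genes, 16 rose, none fell and 7 did not pass in limma (median 0.42). Ebp, a sterol isomerase, was lower at an unadjusted p of 0.05 and under trimmed-mean scaling. Hmgcs1, a synthase of the early pathway, was at 106, 106 and 104 RPKM in control and 186, 188 and 177 RPKM with FGF1, and the groups did not overlap. Of 20 genes of fatty acid synthesis and triglyceride storage, 7 rose, 4 fell and 9 did not pass, and the 7 became 4 without control replicate 2 or control replicate 3 and 3 without FGF1 replicate 2. The desaturases Scd1 and Scd2 rose, from 91 to 141 and from 191 to 322 RPKM. Plin4, a lipid droplet protein, fell from 1.12 to 0.443 RPKM.

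Lipases and lipid carriers that cells secrete fell. Of 11 tested, 7 fell, 2 rose and 2 did not pass (median -0.73). Lipg, the endothelial lipase, was at 16.7, 17.6 and 16.8 RPKM in control and 1.34, 1.38 and 1.47 RPKM with FGF1, Apod, the lipocalin apolipoprotein D, at 287, 259 and 284 RPKM in control and 37.5, 30.3 and 29 RPKM with FGF1, and Enpp2, the lysophosphatidic acid-making enzyme autotaxin, at 14.5, 14.3 and 15.7 RPKM in control and 1.49, 1.7 and 1.6 RPKM with FGF1. In none of the 3 did a FGF1 library come near the control libraries. Lpl, lipoprotein lipase, fell from 78.8 to 47.2 RPKM, and its inhibitor Angptl4 rose from 6.22 to 10.5 RPKM.

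**Figure D4:**
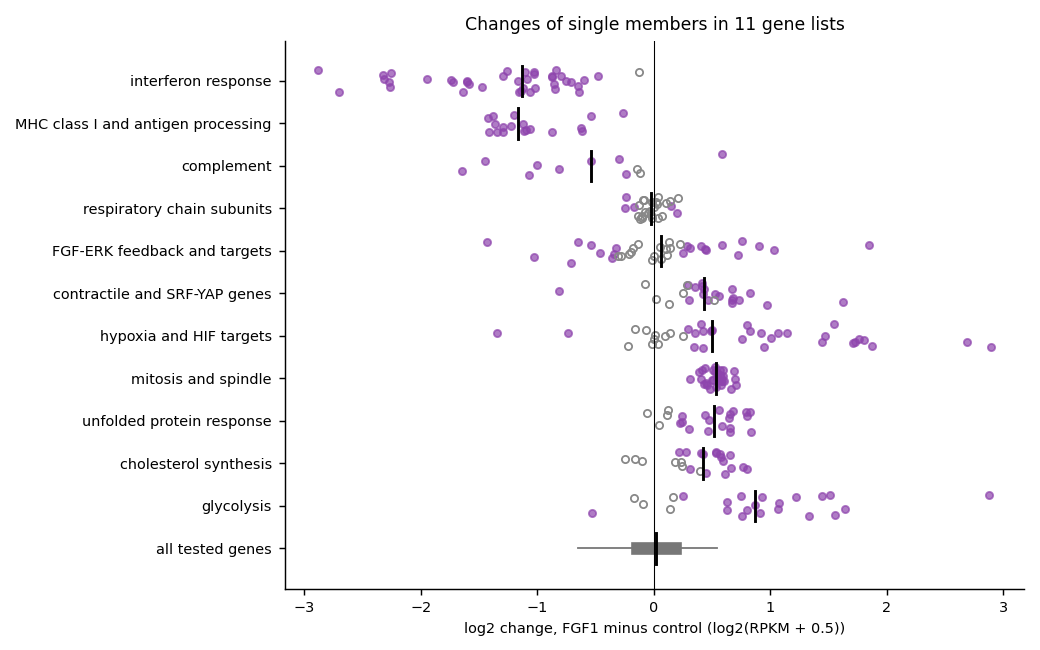
Log2 change, FGF1 minus control, of every tested member of 11 gene lists, with filled points for genes past the threshold, open points for the others and a bar at the list's median. The grey bar and line at the bottom give the quartiles and the outer range, without the tails, of all tested genes. MHC class I and interferon response genes lie to the left of 0, and mitosis genes in a narrow band to the right.

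Nearly all genes of the interferon response fell. These genes are switched on by type I interferon, and the control cells expressed them without any interferon named in the labels. Of 40 tested, 39 fell and 1, Irf1, did not pass (-0.13, adjusted p = 0.202), with a median of -1.13. Ifit3, which blocks viral translation, was at 942, 849 and 934 RPKM in control and 268, 208 and 235 RPKM with FGF1, Bst2, the tether of budding virus, at 1271, 1057 and 1094 RPKM in control and 367, 331 and 334 RPKM with FGF1, and Irf7, the factor that amplifies the response, at 235, 190.3 and 209 RPKM in control and 72.7, 60.9 and 68.8 RPKM with FGF1. Rsad2, the antiviral enzyme viperin, was at 42, 33.6 and 45.9 RPKM in control and 5.87, 4.75 and 6.77 RPKM with FGF1 (-2.70 ± 0.20, adjusted p = 4.5e-08). No FGF1 library of these 4 reached a control library. Stat2, a transcription factor of the interferon signal, fell by 0.64 on the log2 scale. Oas1a, Oas1g and other near-identical relatives of these families have uncertain single values, because the sources do not say how shared reads were assigned.

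Levels were lower still with the other FGFs. Ifit3 averaged 54.8 RPKM with FGF8b and 46.8 with FGF9, and Bst2 162 and 149. FGF1 lay above FGF8b by 2.09 for Ifit3 (adjusted p = 3.72e-06) and 1.10 for Bst2 (adjusted p = 6.54e-06) on the log2 scale. Of the 40 tested genes, 36 were higher with FGF1 than with FGF8b past the threshold and 36 higher than with FGF9. Over all tested genes, 59.9% differed between FGF1 and FGF8b and 61.9% between FGF1 and FGF9, in either direction.

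Promoters of the same 250 bases were searched on both strands for 2 copies of GAAA with 2 bases of any kind between them, the core of the interferon-stimulated response element. It lay before any start in 3.37% of the 10381 genes with a promoter and in 16 of 30 such interferon response genes (53.3%). It also lay in 3 of 16 genes of MHC class I and antigen processing (18.8%), in 22.6% of genes at least 2-fold lower and in 6.5% of genes at least 2-fold higher. The interferon list was likewise chosen to hold genes that interferon switches on, and the part of the element in the changes was not tested. The 6 stretches below are from the list members that fell most among those that hold it, with each complete match or its complement in capitals.
Rsad2 (chr12:26456533-26456602, GRCm38.p6, minus strand): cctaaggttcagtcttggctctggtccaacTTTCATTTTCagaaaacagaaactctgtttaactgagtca
Oas1g (chr5:120887614-120887655, GRCm38.p6, minus strand): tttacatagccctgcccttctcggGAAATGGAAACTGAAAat
Oas1a (chr5:120907526-120907569, GRCm38.p6, minus strand): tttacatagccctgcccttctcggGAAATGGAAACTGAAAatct
Trim30a (chr7:104465194-104465259, GRCm38.p6, minus strand): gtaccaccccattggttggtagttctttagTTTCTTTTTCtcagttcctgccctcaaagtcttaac
Ifit3 (chr19:34583377-34583446, GRCm38.p6, plus strand): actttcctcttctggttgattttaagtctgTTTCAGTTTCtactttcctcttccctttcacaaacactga
Bst2 (chr8:71537557-71537626, GRCm38.p6, minus strand): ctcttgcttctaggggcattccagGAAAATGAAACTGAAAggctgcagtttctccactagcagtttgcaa
In Oas1g, Oas1a and Bst2 a pair of matches overlaps. The stretches of Oas1g and Oas1a are alike up to the last bases, and the genes are close relatives. Trim30a, an antiviral TRIM protein, was at 30.2, 27.3 and 33.1 RPKM in control and 6.54, 4.97 and 6.14 RPKM with FGF1, and Oas1a, which makes the messenger that activates RNase L, at 100.1, 79.6 and 89.1 RPKM in control and 18, 17.2 and 17.3 RPKM with FGF1.

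All 18 tested genes of MHC class I and antigen processing fell, with a median of -1.16. H2-D1, a classical class I heavy chain, was at 337, 282 and 298 RPKM in control and 118, 114 and 109 RPKM with FGF1, Psmb9, a subunit of the immunoproteasome, at 40.6, 32.1 and 31.8 RPKM in control and 14, 13 and 12 RPKM with FGF1, and Tap1, a chain of the peptide transporter, at 62.9, 50.5 and 45.4 RPKM in control and 24, 21.4 and 22.1 RPKM with FGF1. Nlrc5, the transactivator of this group, fell from 3.27 to 1.05 RPKM. The H2-Q and H2-T genes are near-identical to others, and their single values are uncertain. Of 15 ligands, receptors, sensors and inhibitors, 6 fell, 1 rose and 8 did not pass, and the 1 became 3 without control replicate 3. Ifnar1 and Ifnar2 did not pass (adjusted p = 0.834 and 0.195). Tlr3, the sensor of double-stranded RNA, was at 34.6, 34.1 and 37.6 RPKM in control and 13.3, 11.3 and 12.7 RPKM with FGF1, and Ifnb1, interferon beta, at 0.818, 1.15 and 1.04 RPKM in control and 0.203, 0.192 and 0.352 RPKM with FGF1. Socs3, an inhibitor of cytokine signals, rose from 5.7 to 10.6 RPKM.

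Chemokines went both ways. Of 26 tested chemokines and cytokines, 13 fell, 8 rose and 5 did not pass. Those induced by interferon were among the falls: Cxcl9 was at 22.1, 20.04 and 24.6 RPKM in control and 2.74, 2.75 and 3.2 RPKM with FGF1, Cxcl10 at 153, 114 and 132 RPKM in control and 38.4, 35.9 and 42.6 RPKM with FGF1 and Ccl5 at 22.6, 20.9 and 20.2 RPKM in control and 6.75, 5.29 and 6.63 RPKM with FGF1, ligands that draw T cells. Ccl2, which draws monocytes, was at 89.3, 73.6 and 83.2 RPKM in control and 36.2, 38.6 and 36.7 RPKM with FGF1, below control and also below 92.9 ± 4.09 RPKM with FGF8b and 98.3 ± 7.99 with FGF9 (three-way adjusted p = 4.68e-08). Cxcl12, the homing factor of stem cells, rose and was at 431, 399 and 464 RPKM in control and 779, 758 and 769.9 RPKM with FGF1, while it averaged 85.5 RPKM with FGF8b and 67.2 with FGF9. Tnfrsf11b, the decoy receptor osteoprotegerin, rose from 1.24 to 5.66 RPKM. Of 11 tested complement genes, 8 fell, 1 rose and 2 did not pass (median -0.54). Cfb, complement factor B, was at 45.5, 39 and 47.6 RPKM in control and 14.3, 13.1 and 13.8 RPKM with FGF1, and C3, the central component, rose from 4.73 to 7.28 RPKM.

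Of 25 thrombospondins, tenascins and other matricellular genes, 15 rose, 8 fell and 2 did not pass (median 0.63). Vcan, the hyaluronan-binding proteoglycan versican, was at 90.04, 92.1 and 102 RPKM in control and 338, 344 and 335 RPKM with FGF1, and Fn1, fibronectin, at 490.0, 426 and 488 RPKM in control and 707, 733 and 756 RPKM with FGF1. Tnxb, tenascin-X, fell from 3.28 to 0.116 RPKM, and Smoc2 from 5.62 to 1.12 RPKM. Postn, periostin, the most abundant of the list, was at 2384, 2283 and 2466 RPKM in control and 2001, 1851 and 1896 RPKM with FGF1, a fall of 0.31 on the log2 scale (adjusted p = 0.00797). Sparc did not pass (adjusted p = 0.568).

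Collagens went both ways, with 6 of 20 higher, 7 lower and 7 that did not pass. Beside Col3a1, Col5a1, a chain that nucleates fibrils, rose from 69.6 to 102 RPKM and Col7a1, the anchoring fibril collagen, from 1.29 to 2.97 RPKM. Col14a1, a fibril-associated collagen, fell from 18.1 to 7.61 RPKM and Col6a1 from 379 to 254 RPKM. Col1a1 and Col1a2, the chains of type I collagen, did not pass, at 0.09 (adjusted p = 0.767) and -0.05 (adjusted p = 0.773).

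Of 11 small leucine-rich proteoglycans, which bind collagen fibrils, 9 fell and 2 rose (median -0.95). Ogn, osteoglycin, was at 369, 428 and 454 RPKM in control and 138, 128 and 126 RPKM with FGF1, Dcn, decorin, at 469, 467 and 487 RPKM in control and 289, 271 and 259.9 RPKM with FGF1, and Prelp at 5.11, 4.04 and 5.73 RPKM in control and 0.872, 0.81 and 0.783 RPKM with FGF1. Podn, podocan, rose with Bgn, from 4.64 to 12.6 RPKM. Elastic fibre genes and lysyl oxidases leaned the other way, with 15 of 21 higher, 3 lower and 3 that did not pass (median 0.40). Eln, elastin itself, was at 4.22, 3.73 and 3.64 RPKM in control and 1.12, 1.25 and 0.781 RPKM with FGF1, and fibrillin-2 (Fbn2) fell from 18.9 to 8.49 RPKM. The microfibril gene Mfap4 was at 7.85, 7.46 and 6.01 RPKM in control and 34, 31.3 and 33.7 RPKM with FGF1, and Lox, which crosslinks elastin and collagen, at 730.5, 730.1 and 801 RPKM in control and 1000, 1008 and 1021 RPKM with FGF1.

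Of 25 matrix proteases and inhibitors, 9 rose, 11 fell and 5 did not pass. Mmp9, a gelatinase, was at 4.2, 3.35 and 3.74 RPKM in control and 0.601, 0.425 and 0.598 RPKM with FGF1, and Adamts1 at 140.2, 144 and 145 RPKM in control and 60.8, 55.9 and 54.9 RPKM with FGF1. Of the metalloproteinase inhibitors, Timp1 and Timp3 rose from 131 to 211 and from 81.4 to 156 RPKM, whereas Timp2 fell from 336 to 240.4 RPKM. Of 17 integrins and discoidin receptors, 5 rose, 1 fell and 11 did not pass, a share called of 35.3%, near the 34.4% of all tested genes. Itga11, a collagen receptor of myofibroblasts, was at 3.91, 3.17 and 3.77 RPKM in control and 14.2, 13.7 and 15.4 RPKM with FGF1, and Itga5, the fibronectin receptor chain, rose from 24.4 to 36.4 RPKM. The 1 that fell, Itga8, was joined by another gene without control replicate 1 or control replicate 2.

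Genes of the contractile cytoskeleton, which SRF and YAP drive in myofibroblasts, rose. Of 25 tested, 18 rose, 1 fell and 6 did not pass (median 0.43). Acta2, smooth muscle actin, was at 43.8, 40.5 and 39.2 RPKM in control and 76.2, 83.8 and 84.1 RPKM with FGF1 (0.97 ± 0.17, adjusted p = 0.000298), Tagln, the actin binder transgelin, at 65.8, 58.1 and 55.7 RPKM in control and 88.1, 85.8 and 90.7 RPKM with FGF1, and Ctgf, a YAP target, at 2.2, 1.65 and 2.28 RPKM in control and 6.56, 7.98 and 7.4 RPKM with FGF1. In these 3 the groups did not overlap. Actb and Actg1, the cytoplasmic actins often used as reference genes, rose from 250.5 to 399 and from 347 to 576 RPKM, under trimmed-mean scaling too (0.65 and 0.71). Ankrd1 fell from 9.15 to 5 RPKM. The summed level of 10 markers of mural cells, which are contractile too, was 4.56 to 7.08 RPKM in control and 12.3 to 14.5 RPKM with FGF1, with none of the 10 at 0 throughout. Of the 5 mural markers tested, 1 was higher and 4 did not pass. The 1 that rose, Ndufa4l2, is also on the hypoxia list and went from 0.705 to 7.76 RPKM. The part of mural cells in the rise was not tested.

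Among signalling families, the transforming growth factor beta genes were mixed. Of 34 genes of the TGF-beta and BMP pathway, 16 rose, 9 fell and 9 did not pass. Tgfb3 was at 8.93, 8.3 and 7.21 RPKM in control and 35.9, 36 and 34 RPKM with FGF1 (2.05, adjusted p = 2.28e-10), and Tgfb2 fell from 8.33 to 3.69 RPKM. Tgfbi, a matrix protein named for its induction by TGF-beta, was at 131, 124 and 124 RPKM in control and 481, 502 and 491 RPKM with FGF1. Id1, Id2 and Id4, targets of BMP signals, fell by 0.97, 1.05 and 1.08 on the log2 scale. The BMP antagonist Grem1 rose from 8.4 to 19 RPKM, and the antagonists Fst and Chrdl1 fell from 17.5 to 5.95 and from 33.5 to 12.8 RPKM.

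Insulin-like growth factor genes leaned downward. Of 14 tested, 7 fell, 1 rose and 6 did not pass (median -0.32). Igf1 was at 119.6, 118 and 103 RPKM in control and 53.3, 48 and 49.3 RPKM with FGF1 and Igfbp5 fell from 14.5 to 6.04 RPKM. Pappa, the protease that frees the growth factor from its binding proteins, rose from 1.19 to 3.34 RPKM. The receptors Igf1r and Insr did not pass (adjusted p = 0.937 and 0.42). In the VEGF, PDGF and angiopoietin system 9 of 19 rose, 7 fell and 3 did not pass. Angpt2, an antagonist of the TIE2 receptor, was at 9.61, 9.22 and 11.2 RPKM in control and 1.15, 1.25 and 1.51 RPKM with FGF1, and Pdgfc rose from 6.29 to 17.4 RPKM while Pdgfd fell from 3.44 to 1.2 RPKM. Of 26 WNT genes, 6 rose, 5 fell and 15 did not pass, with the R-spondin receptor Lgr4 going from 6.73 to 12.6 RPKM and the antagonist Sfrp4 at 21.7, 20.4 and 24.2 RPKM in control and 6.04, 7.21 and 7.48 RPKM with FGF1.

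The genes of brown fat identity were not raised as a group, and 14 of the 26 listed stayed under 1 RPKM in all 6 libraries. Of 17 tested brown thermogenic genes, 3 rose, 5 fell and 9 did not pass (median 0.02, and -0.0036 under trimmed-mean scaling), and the 3 became 1 without FGF1 replicate 3. Ucp1, the uncoupling protein, averaged 0.0226 RPKM in control and 0.0184 with FGF1, 3 and 2 reads over the libraries, and a difference was not detectable at this depth. Dio2, the deiodinase that activates thyroid hormone, was at 1.15, 1.17 and 1.37 RPKM in control and 0.137, 0.134 and 0.105 RPKM with FGF1, and Ppargc1a, the coactivator of mitochondrial genes, at 0.297, 0.268 and 0.389 RPKM in control and 0.12, 0.0285 and 0.13 RPKM with FGF1. The early brown factor Ebf2 did not pass (adjusted p = 0.24). Cox7a1, a subunit of cytochrome c oxidase found in brown fat and muscle, rose and was at 1.8, 1.38 and 0.509 RPKM in control and 2.47, 3.44 and 3.06 RPKM with FGF1.

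Of 14 tested genes of adipocyte differentiation, 3 rose, 5 fell and 6 did not pass, and the 3 became 1 without FGF1 replicate 3. Pparg, the master regulator, was at 3.93, 3.42 and 3.9 RPKM in control and 1.94, 1.74 and 2.09 RPKM with FGF1 (-0.81 ± 0.11, adjusted p = 2.79e-05), and Cebpa, its partner, at 2.36, 2.72 and 2.75 RPKM in control and 5.58, 6.87 and 4.66 RPKM with FGF1 (0.98, adjusted p = 1.92e-05). The pair moved in opposite directions, each without overlap. Klf4 was at 15.8, 12.4 and 13.7 RPKM in control and 3.16, 2.64 and 3.09 RPKM with FGF1, and Klf15, a later differentiation factor, at 2.16, 1.63 and 1.74 RPKM in control and 0.354, 0.29 and 0.296 RPKM with FGF1. Of 18 preadipocyte and progenitor genes, 10 fell, 5 rose and 3 did not pass (median -0.30). Their summed level was 2640 to 2870 RPKM in control and 1790 to 1850 RPKM with FGF1, and Ly6a made up most of that difference. Dlk1, the inhibitor of differentiation Pref-1, was at 229, 183 and 190.5 RPKM in control and 88.3, 92.4 and 86.1 RPKM with FGF1, Cd34 fell from 171 to 94.1 RPKM, and Cd24a rose from 0.956 to 2.07 RPKM.

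Of 29 mesenchymal transcription factors, 8 rose, 8 fell and 13 did not pass. Beside Runx1, Snai1, a factor of epithelial-mesenchymal transition, was at 3.1, 2.25 and 2.62 RPKM in control and 7.15, 7.85 and 8.84 RPKM with FGF1, and Sox9, the cartilage factor, at 2.38, 2.02 and 2.67 RPKM in control and 5.79, 5.65 and 6.2 RPKM with FGF1. Runx2, the bone factor, rose from 4.28 to 7.86 RPKM. Twist2 fell from 7.54 to 4.73 RPKM.

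A further comparison was where FGF1 stood apart from the 2 other FGFs. Tested directly, 8312 genes differed between FGF1 and FGF8b (59.9%) and 8586 between FGF1 and FGF9 (61.9%). A three-way test asked for a difference from control, FGF8b and FGF9 in the same direction, and 769 genes were higher with FGF1 than in each (5.54%) and 401 lower (2.89%). The 3 comparisons share the FGF1 libraries and are not independent.

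Among the genes above all 3 groups, Rspo3 averaged 0.465 ± 0.0199 RPKM with FGF8b and 0.313 ± 0.0215 with FGF9 (three-way adjusted p = 1.48e-10), below control, while FGF1 lay above control. Serpina3n, a secreted protease inhibitor, was at 14.8, 13.1 and 14.8 RPKM in control and 64.4, 64.9 and 65.4 RPKM with FGF1, and at 6.16 ± 1.03 RPKM with FGF8b and 6.07 ± 0.786 with FGF9. Has2 was at 5.65 ± 0.401 RPKM with FGF8b and 5.01 ± 0.298 with FGF9, near its control level. Cilp was at 4.87 ± 1.01 and 4.52 ± 0.56, and Palmd, a cytosolic protein of uncertain function, had 30 reads in control and 456 with FGF1, a ratio of 17.6 (95% exact counting interval 12.2 to 26.4). Each of these genes was higher with FGF1 than in any library of the 3 other groups, the difference for which they were chosen.

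Among the genes below all 3 groups, Gpnmb, a lysosomal glycoprotein, was at 60.1, 46.1 and 56.9 RPKM in control and 15.8, 15.1 and 17 RPKM with FGF1, and at 76.8 ± 4.72 RPKM with FGF8b and 86.6 ± 2.56 with FGF9 (three-way adjusted p = 3.21e-09). Klf15 averaged 2.93 ± 0.653 and 3.27 ± 0.354. Atp1b1, a subunit of the sodium pump, was at 19.9, 19.4 and 20.5 RPKM in control and 7.02, 5.37 and 6.43 RPKM with FGF1, and at 15.3 ± 0.91 and 19.1 ± 1.46 RPKM with the 2 other FGFs. Pcdh9, a protocadherin, fell from 3.62 to 1.03 RPKM and was at 2.82 and 2.87. Uap1l1 and Pla1a were also below each of the 3 groups (three-way adjusted p = 1.91e-07 and 2.21e-05).

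**Figure D5:**
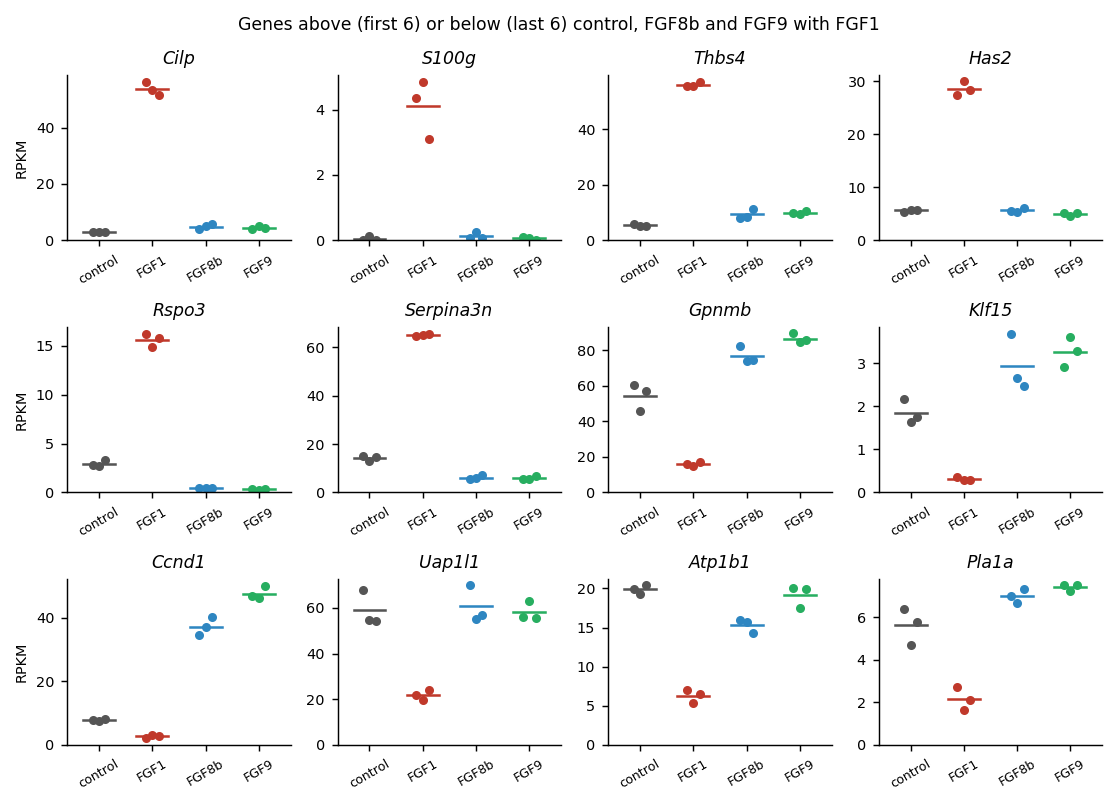
RPKM in the 3 libraries of control, FGF1, FGF8b and FGF9 for the 6 genes furthest above and the 6 furthest below all other groups with FGF1 by the smallest of the 3 differences, with a bar at the mean and axes starting at 0. The FGF1 libraries lie apart from all 9 others in each of the 12 genes, which were chosen for that difference.

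By list, the three-way test called 15 of 22 genes of the unfolded protein response, 13 of 23 of cholesterol synthesis, 22 of 30 of mitosis, 15 of 25 contractile genes and 14 of 38 hypoxia genes higher with FGF1 than in each other group. For glycolysis the number was 2 of 23, and members differed from the other FGFs in both directions. Against FGF8b 8 were called higher with FGF1 and 5 lower, and against FGF9 8 higher and 6 lower. Over all tested genes 59.9% were called against FGF8b and 61.9% against FGF9, so the glycolysis counts are near the background. Pgk1 averaged 612 ± 56 RPKM with FGF8b and 553 ± 21.4 with FGF9, and FGF1 differed from neither past the threshold (adjusted p = 0.252 and 0.732). The log2 difference was -0.11 from FGF8b (95% interval -0.29 to 0.07) and 0.03 from FGF9 (-0.14 to 0.21). Of the lowered FGF-ERK genes, Ccnd1, Dusp6, Spry1, Spry2 and Etv4 were below each other group.

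For other genes FGF1 stood between control and FGF8b. Spp1, the secreted phosphoprotein osteopontin, was at 30.5, 31.5 and 31.8 RPKM in control and 285, 309 and 282 RPKM with FGF1, and at 3301 ± 10.1 RPKM with FGF8b (FGF1 minus FGF8b -3.50, adjusted p = 8.15e-16). Crabp1, the retinoic acid binder, was at 91.4, 96.5 and 73.1 RPKM in control and 373, 384 and 402 RPKM with FGF1, and at 1463 ± 112 RPKM with FGF8b (-1.92, adjusted p = 7.23e-10). Both were between control and FGF8b in every FGF1 library.

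Summed levels of other marker lists also differed between the groups. That of 10 bone and cartilage markers was 5.64 to 6.70 RPKM in control and 9.53 to 10.1 RPKM with FGF1, of which Sox9 alone went from 2.35 to 5.88 RPKM. Of the other 3 tested, Phex did not pass at 2.71 and 3.19 RPKM but was higher without control replicate 3 (0.30, adjusted p = 0.0296). Bglap and Alpl were lower (-0.67, adjusted p = 0.0358, and -0.44, adjusted p = 0.0305). Bglap lost its call without any 1 library except control replicate 3 or FGF1 replicate 2 (adjusted p from 0.0693 to 0.172), with no filter (0.0721) and with fewer groups in the fit (0.0916). Alpl lost its call without control replicate 1 (0.146), control replicate 3 (0.0664), FGF1 replicate 1 (0.098) or FGF1 replicate 2 (0.0833). Ibsp was listed at 0. The sum of 10 Schwann and neural markers was 13.3 to 14.2 RPKM in control and 9.65 to 10.8 RPKM with FGF1. In it Ngfr fell from 6.99 to 0.641 RPKM while Tubb3, a neuronal tubulin, rose from 0.765 to 4.17 RPKM, and of the 6 tested 2 rose and 2 fell.

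The sum of 10 endothelial markers was 14.5 RPKM in control and 7.98 to 8.28 RPKM with FGF1. Kdr, a VEGF receptor, fell from 6.18 to 0.709 RPKM and Tek from 1.94 to 0.937 RPKM, Egfl7 did not pass at 6.01 and 6.35 RPKM, and Cldn5 was listed at 0. That of 10 skeletal muscle markers was 5.53 to 6.09 RPKM in control and 8.37 to 9.65 RPKM with FGF1, of which Acta1, an actin, went from 5.12 to 7.59 RPKM. Macrophage markers summed to 3.62 to 5.01 and 3.75 to 4.47 RPKM, with Ptprc, Cd163 and Tyrobp listed at 0 in all 6 libraries, markers of the mature adipocyte to 7.31 to 9.0 and 8.93 to 11, and lymphocyte and mast cell markers to under 0.13 RPKM in each library. The part of other cells in these results was not tested.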

How the data were processed

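Libraries made from total RNA with a TruSeq RNA kit, per the labels, were analysed for 3 FGF1 and 3 control samples, with 9 samples of the 3 other groups in the fit. The authors deposited 1 table of normalized values with decimal commas. Per the submitters' processing notes CASAVA and bcl2fastq were used, and the sources used here name no aligner, genome build, annotation or strand setting. The values deposited by the authors were read as RPKM, because low values are whole multiples of 1 read (94.6% to 95.4% per library, tolerance 0.05, 10% by chance), and depth was taken from those steps. Single values of near-identical or overlapping genes are therefore uncertain. Reads of a gene were inferred with the shortest transcript length that made its values near whole multiples of 1 read. That length equalled the annotated one in 69.6% of 4617 transcripts compared.

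Of 168326 transcript lines, 145154 carry a symbol, and 1 line per symbol was kept. Genes with at least 0.5 RPKM in 3 libraries were tested on log2(RPKM + 0.5) with limma 3.58.1 (trend) in R 4.3.3 over all 5 groups and Benjamini-Hochberg adjustment at 0.05. The three-way p is the largest of the 3 p-values of FGF1 against control, FGF8b and FGF9, adjusted over all genes. Intervals of differences use the 10 residual degrees of freedom. On simulated data with 13869 genes the FGF1 against control fit recovered 68%, 94% and 100% of genes changed by 0.5, 1 and 2 on the log2 scale. Promoters are RefSeq (GRCm38.p6).

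The members and gene lists were chosen with earlier results of these data known. The rule for named genes took, from genes past the threshold whose groups did not overlap, with at least 1 RPKM in a group and leaving out predicted gene models, the 12 largest log2 changes and the 8 largest RPKM changes in each direction, the 8 furthest from control, FGF8b and FGF9 in each direction, up to 4 per list and direction, and 17 genes followed throughout. Other named genes were chosen after their values were seen. Alternatives were the pseudocount, the filter, scaling, summed transcripts, fewer groups in the fit, a replicate block, voom on recovered reads and leaving out each library.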

Additional observations from a re-analysis of the deposited data

How the results depend on the processing

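No count changed its direction, and leaving out 1 library at a time gave 3911 to 4373 genes past the threshold against 4772, and 896 to 1065 against 1170 by the three-way test. The number of genes at least 2-fold higher, 172, moved to 272 at a pseudocount of 0.1, to 263 when transcripts were summed and to 315 with voom on recovered reads. With voom the number at least 2-fold in either direction was 824 against 532. The cause was not tested. Trimmed-mean scaling shifted the log2 changes by -0.0264 and gave 2379 genes higher and 2304 lower. When transcripts were summed, 2 genes passed in the other direction. Genes under about 1 RPKM rest on few reads, and a change in them was often not detectable at this depth.

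Replicate numbers are shared between the groups, but same-numbered libraries did not deviate together (r = -0.079, 0.03 and 0.054 across genes), so the numbers were not taken as pairs. With a replicate block 4850 genes passed, 2721 higher and 2129 lower, among them 97.3% of the genes higher and 97.9% of those lower without the block. The lactate transporter Slc16a1 was called lower with the block (-0.17, adjusted p = 0.0444) and not without it.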

Other observations

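In 4 further gene lists the share of tested members past the threshold was 51.9% for neurotrophins and axon guidance, 53.8% for the prostaglandin pathway, 58.8% for the imprinted growth network and 38.5% for NRF2 and glutathione genes, against 34.4% of all tested genes, so the last is near the background. Ngfr, the low-affinity neurotrophin receptor, was at 7.67, 6.54 and 6.75 RPKM in control and 0.569, 0.675 and 0.679 RPKM with FGF1, and Bdnf, a neurotrophin, rose from 2.25 to 5.1 RPKM. Sema7a, a membrane-anchored semaphorin, was at 1.25, 1.22 and 1 RPKM in control and 4.32, 4.33 and 4 RPKM with FGF1, and Sema3d, a secreted one, fell from 5.63 to 1.11 RPKM. Of 27 tested genes of neurotrophins and axon guidance, 8 rose, 6 fell and 13 did not pass. In the prostaglandin pathway 4 of 13 rose, 3 fell and 6 did not pass: Ptgs2, the inducible cyclooxygenase, was at 2.81, 3.02 and 3.35 RPKM in control and 7.55, 7.06 and 8.21 RPKM with FGF1, Ptgfr, the receptor of prostaglandin F, rose from 13.5 to 37.8 RPKM, and Slco2a1, the prostaglandin importer, was at 10.1, 8.54 and 8.9 RPKM in control and 2.25, 1.89 and 1.81 RPKM with FGF1. The median of that list, 0.01, turned to -0.02 under trimmed-mean scaling.

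Of 17 tested genes of the imprinted growth network, 3 rose, 7 fell and 7 did not pass. Plagl1, a zinc finger factor tied to this network, was at 34.6, 38.5 and 43.7 RPKM in control and 15.4, 14.1 and 15.9 RPKM with FGF1, Peg10 fell from 12 to 5.17 RPKM, and H19, a noncoding RNA, rose from 202 to 313 RPKM. Of 26 tested NRF2 and glutathione genes, 3 rose, 7 fell and 16 did not pass. The glutathione transferase Gstm1 was at 159, 154 and 155 RPKM in control and 73.1, 68.6 and 64.3 RPKM with FGF1, Hmox1, heme oxygenase, fell from 38.1 to 25.3 RPKM, and Gclm, a subunit of the rate-limiting enzyme of glutathione synthesis, rose from 20.3 to 29.6 RPKM.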
